A study of Sus scrofa with 34 samples.

Results

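The genes PMM1, RAB30, SLC25A45 and ENSSSCG00000000576, 4 in all and less known in the liver than the classic genes of fat oxidation, were followed across the diets of a piglet feeding trial. They were chosen by name from the 25880 gene rows of the count tables because their liver counts stood high in pigs fed oxidized oil, so the levels with and without oil are what chose them. RNA was sequenced from the liver of 24 weaned crossbred piglets and from the ileum of 10 of the same piglets, all after 28 days on their diet. Liver came from 6 pigs each on the control diet, on a phytogenic feed additive made of essential oils and related compounds (PFA), on oxidized rapeseed oil (OO) and on both together (OO + PFA), and ileum from 5 control and 5 PFA pigs. The oil of the OO and OO + PFA diets was rapeseed oil heated in a fryer, while the diets without it held only a little fresh rapeseed oil, so the amount of oil and its oxidation cannot be told apart. Every diet had a pen of its own, so the pen goes with the diet in each comparison and the 2 cannot be told apart either.

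Levels are given as CPM, the read pairs of a gene scaled to a common library size, with TMM factors set within each tissue. Between 18738055 and 42446834 read pairs per library were counted on genes. The study left out a liver of the OO + PFA group over suspected RNA degradation and low mapping without naming the pig, and OP-77 is taken to be that pig because its library has the lowest mapping rate in the study's mapping table. OP-77 was kept out of the fits, which thus held 23 livers. Its library had 36.6 pairs aligned to several places per 100 pairs on genes, against at most 14.7 in any other liver, and 48.3% of its counts lay in its 10 top genes. Hepatocyte markers (ALB, APOA1, TTR, SERPINA1, TF, FGB and APOB) summed to between 89990 and 211600 CPM in the livers and to between 3099 and 7640 CPM in the ilea, which goes with the tissue labels. SERPINA1 added little to these sums, at 0.64 to 3.78 CPM over the livers, and was the 1 of the 7 markers called in an oil contrast, lower in OO than in control (log2 difference -1.25). In bulk tissue, fewer cells of a type and less RNA per cell cannot be told apart.

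Fatty acids and their oxidation products are known ligands of PPAR-alpha, the nuclear receptor that raises fatty acid oxidation genes in the fasting or fat-fed liver, and it binds DNA at repeats of the hexamer AGGTCA. PMM1 is a phosphomannomutase, which turns mannose 6-phosphate into the mannose 1-phosphate used to build GDP-mannose for protein glycosylation, and it can also break down glucose 1,6-bisphosphate. RAB30 is a small GTPase of the Golgi apparatus, where RAB proteins direct membrane traffic. SLC25A45 belongs to the SLC25 family, the carriers that move metabolites across the inner mitochondrial membrane, and it has been linked to the transport of methylated amino acids such as trimethyllysine, the starting material of carnitine. For ENSSSCG00000000576 the gene tables used here gave neither a symbol nor a position, so it is called by its identifier and no role is given.

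On the pig assembly Sscrofa11.1, RefSeq places PMM1 on chromosome 5 from 6964999 to 6975904 on the plus strand with 8 exon blocks, and the nearest gene, CSDC2 on the minus strand, lies 217 bases beyond it. RAB30 lies on chromosome 9 from 17124181 to 17222741 on the minus strand with 6 exon blocks, and 104 of its exon bases are shared with PRCP on the same strand. SLC25A45 lies on chromosome 2 from 6851101 to 6857886 on the plus strand with 7 exon blocks, and FRMD8, on the minus strand, lies 7160 bases before it. The 250 bases upstream of each annotated gene start are shown because these genes stood high on the same diets. Capitals mark the hexamer AGGTCA on either strand (TGACCT where it is on the other strand). Sequences run 5′ to 3′ on the strand of the gene.
PMM1 (chr5:6964749-6964998, plus strand): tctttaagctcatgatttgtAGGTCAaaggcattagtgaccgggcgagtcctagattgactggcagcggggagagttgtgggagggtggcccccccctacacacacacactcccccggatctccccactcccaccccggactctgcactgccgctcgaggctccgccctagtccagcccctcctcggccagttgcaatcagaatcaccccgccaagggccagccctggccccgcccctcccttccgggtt
RAB30 (chr9:17222742-17222991, minus strand): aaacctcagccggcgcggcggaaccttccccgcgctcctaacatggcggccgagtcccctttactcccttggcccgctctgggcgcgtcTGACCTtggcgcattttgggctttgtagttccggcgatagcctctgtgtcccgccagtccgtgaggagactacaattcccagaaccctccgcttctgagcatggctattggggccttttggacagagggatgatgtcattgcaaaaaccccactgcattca
SLC25A45 (chr2:6850851-6851100, plus strand): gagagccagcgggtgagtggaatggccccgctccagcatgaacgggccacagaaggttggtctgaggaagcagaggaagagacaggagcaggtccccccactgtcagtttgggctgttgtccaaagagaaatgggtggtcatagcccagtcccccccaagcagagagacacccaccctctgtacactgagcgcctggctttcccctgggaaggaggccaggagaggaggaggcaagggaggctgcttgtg

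The hexamer AGGTCA was found once upstream of PMM1, once upstream of RAB30 and not upstream of SLC25A45, and 12.2% of 19498 windows of the same length held it. The direct repeat 1 motif, in which 2 such hexamers follow each other with 1 base between them and the fourth base of each is free, was searched on both strands. It was in none of the 3 windows and in 0.231% of all windows. The 3 windows differed in CG dinucleotides, with 12 upstream of PMM1, 17 upstream of RAB30 and 4 upstream of SLC25A45, against a median of 12 over all windows.

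PMM1 stood higher in every liver from the oil diets than in any liver from the diets without it. Control livers held between 5.78 and 12.5 CPM (median 9.26) and PFA livers between 5.51 and 11.6 CPM (median 7.73). OO livers ranged from 27.5 to 63.9 CPM with a median of 41.0 CPM. The 5 OO + PFA livers held 30.7 CPM in pig OP-79, 39.2 in OP-98, 37.4 in OP-105, 39.3 in OP-126 and 71.4 in OP-137. The oil groups overlapped each other, as did the groups without oil. On the log2 scale PMM1 was 2.18 (SE 0.23) higher in OO than in control, a 4.54-fold difference (95% interval 3.26 to 6.34). This is given as a description because the gene was chosen for standing high with oil.

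RAB30 was measured from few read pairs, between 48 and 131 per liver without oil and between 155 and 503 per liver with oil. Its level in control livers lay between 2.001 and 3.62 CPM (median 2.50), and in PFA livers between 2.10 and 2.96 CPM (median 2.67). In OO livers it lay between 9.21 and 15.4 CPM (median 11.3). Among the OO + PFA livers it was 4.89 CPM in OP-79, 8.81 in OP-98, 8.52 in OP-105, 8.34 in OP-126 and 20.4 in OP-137. This group had both the lowest and the highest oil livers, and 4 of its 5 pigs stood below every OO pig. The difference between OO and control was 2.10 (SE 0.25) on the log2 scale, or 4.29-fold (95% interval 3.02 to 6.10), again as a description. PRCP, a carboxypeptidase gene that shares exon bases with RAB30 on the same strand, stood at 63.3 ± 16.2 CPM in control and 47.7 ± 9.87 CPM in OO livers (SD, n = 6 each), a log2 difference of -0.41 with an adjusted p of 0.144 (edgeR).

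For SLC25A45 the spread between pigs was wide on every diet. Control livers ranged from 2.20 to 7.66 CPM (median 3.55) and PFA livers from 1.38 to 6.14 CPM (median 2.79). OO livers ranged from 9.42 CPM in pig OO-97 to 29.9 CPM in OO-102, with a median of 24.2 CPM. The OO + PFA livers held 20.4 CPM in OP-79, 19.9 in OP-98, 17.4 in OP-105, 8.53 in OP-126 and 42.8 in OP-137. The gap between diets was narrow here, since control pig C-92 at 7.66 CPM was close to the lowest oil liver. OO exceeded control by 2.45 (SE 0.38) on the log2 scale, or 5.46-fold (95% interval 3.16 to 9.43), as a description.

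ENSSSCG00000000576 was measured from the most read pairs, between 1459 and 3113 per liver without oil and between 4712 and 13288 per liver with oil. Control livers lay between 63.3 and 83.0 CPM (median 67.1) and PFA livers between 64.2 and 80.6 CPM (median 69.6). The OO livers were at 299.5, 302.9 and 313.8 CPM in pigs OO-102, OO-99 and OO-97 and at 467.9, 472.0 and 475.4 CPM in OO-130, OO-88 and OO-74. The OO + PFA livers held 149 CPM in OP-79, 236 in OP-98, 251 in OP-105, 231 in OP-126 and 277.5 in OP-137, and did not overlap the OO livers. OO exceeded control by 2.45 (SE 0.16) on the log2 scale, or 5.47-fold (95% interval 4.37 to 6.85). By fold, the gene ranked 19 among the 190 genes called higher in OO, SLC25A45 ranked 20, PMM1 29 and RAB30 31; 2.71% of the 13831 genes tested were called, 1.37% higher and 1.34% lower, and nothing is read from the members' calls in this contrast. The OO group stood wholly above control in 0.781% of genes, and all 11 oil livers stood above all 12 livers without oil in 27 genes (0.195%), the 4 genes among them. The choice of the genes favours this separation, so nothing is read from it either.

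**Figure D1:**
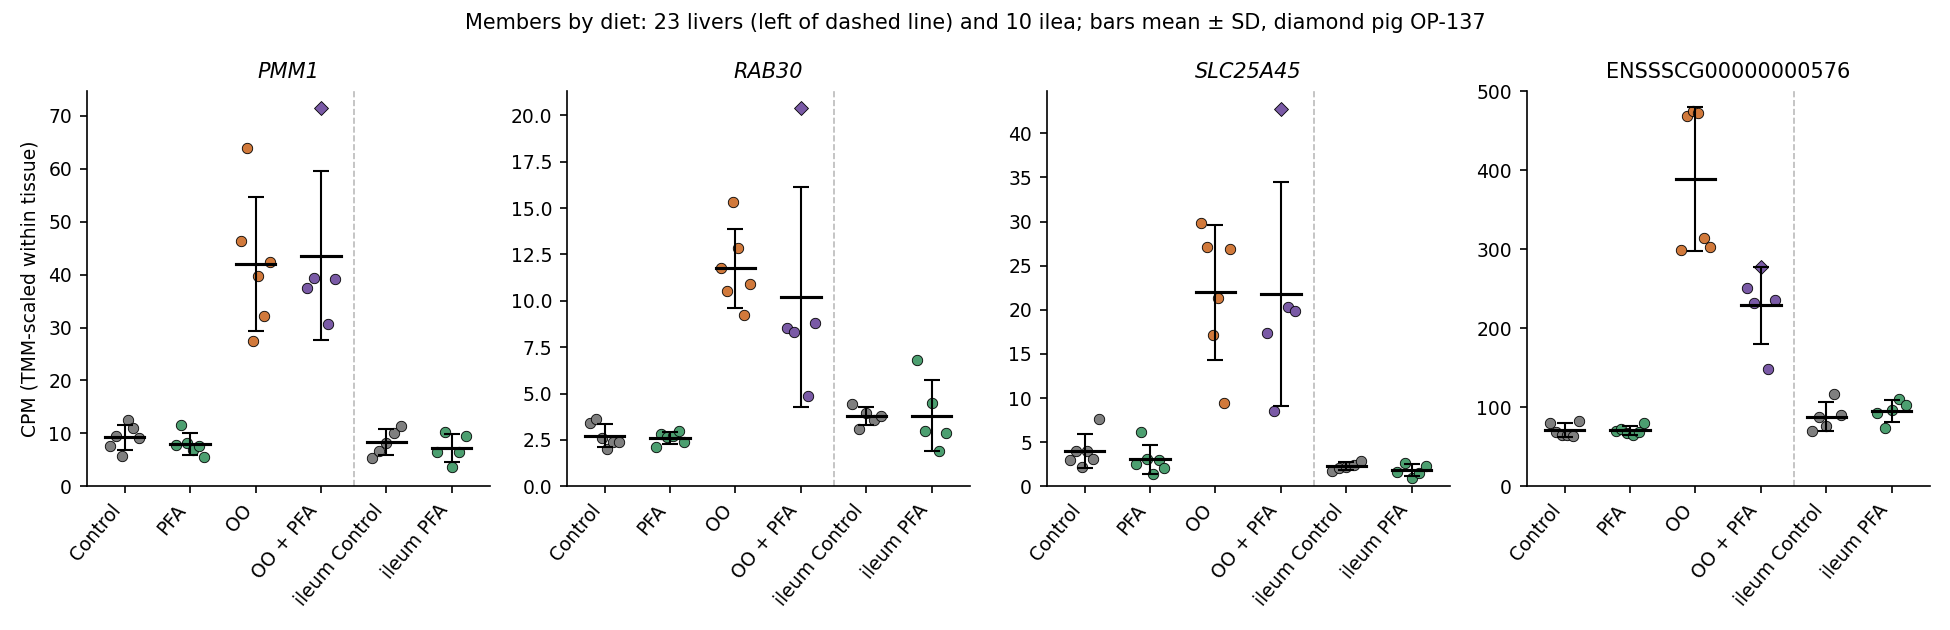
CPM of each of the 4 genes by pig (points), with mean and SD (bars), for the 23 livers left of the dashed line and the 10 ilea right of it; CPM was scaled within each tissue and the diamond is pig OP-137. Livers from the oil diets stand above all livers without oil, which the choice of the genes favours. ENSSSCG00000000576 is lower in OO + PFA (149 to 277.5 CPM) than in OO (299.5 to 475.4 CPM), and the ilea show no separation by PFA.

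The same effect of oil was then read from other pigs, those fed OO + PFA against those fed PFA alone. Which oil contrast was in view when the genes were chosen is not recorded, so these differences are a description too, with no test. By the quasi-likelihood test of edgeR, adjusted over 13831 genes by the Benjamini-Hochberg method, 1.58% of genes were called in either direction, 1.24% higher and 0.333% lower, and nothing is read from the members' calls here either. PMM1 was 2.45 higher on the log2 scale (SE 0.24, 5.48-fold). SLC25A45 was 2.84 higher (SE 0.40, 7.17-fold). RAB30 was 1.96 higher (SE 0.25, 3.90-fold). The difference of ENSSSCG00000000576 was 1.70 (SE 0.16, 3.24-fold). In each of the 4 genes every OO + PFA liver stood above every PFA liver, as did 4.69% of all genes tested.

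Pig OP-137 had the highest level of all 4 genes in the OO + PFA group, and its liver also stood apart in APOA4, an apolipoprotein gene listed here among enterocyte markers. APOA4 reached 675 CPM in OP-137, against at most 47.7 CPM in any other liver. Of 5 enterocyte markers with a row the others were low in OP-137, as in all livers, with FABP2, CDH17 and SI below 1 CPM and VIL1 between 2.2 and 31.5 CPM over all livers. The summed markers came to 683 CPM in OP-137 and to between 14.4 and 57.4 CPM in the other livers, and their part in the levels of the 4 genes was not tested. Without OP-137 the log2 differences were 2.20 for PMM1, 1.55 for RAB30, 2.44 for SLC25A45 and 1.62 for ENSSSCG00000000576, while the number of genes called fell from 218 to 103. The library titles come in 2 forms, PigLiv and PL, both present in each diet. Within PigLiv livers the difference between OO + PFA and PFA was 2.25 for PMM1, 1.57 for RAB30, 2.78 for SLC25A45 and 1.66 for ENSSSCG00000000576 (4 against 3 livers), and within PL livers OP-137 was the lone OO + PFA liver. OP-77, the liver left out, had 49.7 CPM of PMM1, 5.04 CPM of RAB30, 31.8 CPM of SLC25A45 and 160.5 CPM of ENSSSCG00000000576 when scaled together with the others, each above every liver without oil.

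PFA in the presence of oil was compared next, OO + PFA against OO. Both groups were fed oil, and the genes were chosen for standing high with oil, so these values are not independent of the choice. If OO against control was in view, the choice favours a lower level in OO + PFA. No gene among 13831 was called in this comparison by edgeR (percent called 0; smallest adjusted p 0.0900), 1176 had an unadjusted p under 0.05, and DESeq2 called 31. ENSSSCG00000000576 was 1.70-fold lower in OO + PFA, with 229 ± 48.3 CPM (SD, n = 5) against 389 ± 91.3 CPM (SD, n = 6) and a log2 difference of -0.76 (95% interval -1.09 to -0.44). It ranked 6 of all genes by p but missed the threshold (adjusted p = 0.0970 by edgeR), and DESeq2 called it (adjusted p = 0.003553). The groups did not overlap, every OO + PFA liver standing below every OO liver, which was the case for 0.441% of genes tested. Leaving out 1 pig at a time gave log2 differences from -0.84 to -0.64 and adjusted p from 0.0505 to 0.330 with edgeR. The difference was -0.72 within PigLiv livers (4 against 3) and -0.57 within PL livers (1 against 3).

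The other 3 genes did not pass the test between the oil diets. For PMM1 the log2 difference was 0.05 (95% interval -0.42 to 0.53, adjusted p = 0.960), so the data allow up to 1.45-fold higher and 0.746 times the OO level. RAB30 gave -0.21 (95% interval -0.71 to 0.30, adjusted p = 0.828), and -0.62 without OP-137. SLC25A45 gave -0.01 (95% interval -0.79 to 0.77, adjusted p = 0.995), the widest interval of the 4 genes, and -0.41 without OP-137. The test of whether the effect of oil differed with and without PFA called none of the 13831 genes (percent called 0; smallest adjusted p 0.0505; 1881 genes at an unadjusted p under 0.05; 150 called by DESeq2). For ENSSSCG00000000576 this interaction was -0.76 on the log2 scale (SE 0.22, unadjusted p = 0.00189, adjusted p = 0.178), and for the other 3 genes it lay between -0.14 and 0.39 (adjusted p from 0.740 to 0.891). The interaction is built from the oil differences that may have chosen the genes, so its p-values for them are not independent of the choice. If OO against control was in view, the choice favours a negative value.

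PFA without oil was then compared with control, and the levels of either group may have taken part in the choice of the genes. By edgeR no gene was called (percent called 0; smallest adjusted p 0.166; 1522 genes at an unadjusted p under 0.05), and DESeq2 called 43 genes. The 4 genes differed by -0.22 (PMM1), -0.07 (RAB30), -0.41 (SLC25A45) and -0.01 (ENSSSCG00000000576) on the log2 scale, with adjusted p from 0.711 to 0.990. The interval was narrowest for ENSSSCG00000000576, from -0.32 to 0.30, and widest for SLC25A45, from -1.18 to 0.37. The groups overlapped in every one of the 4 genes.

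**Figure D2:**
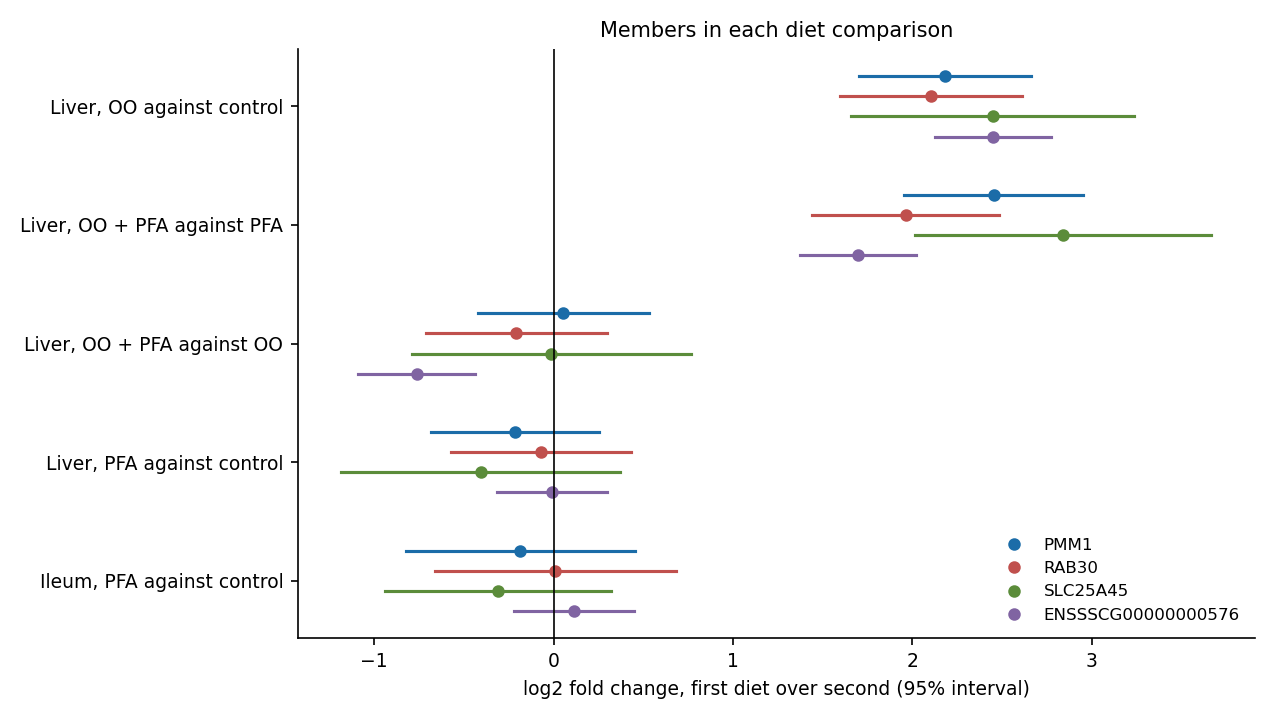
Log2 fold change of the first diet over the second (points) with its 95% interval derived from the edgeR test (lines), for each of the 4 genes in 5 diet comparisons. All intervals of the 2 oil contrasts lie above 0, which the choice of the genes favours, so these are a description. ENSSSCG00000000576 lies at -0.76 for OO + PFA against OO with an interval below 0, a value not independent of the choice. All other intervals in the lower 3 comparisons include 0.

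The relatives and pathway partners of the named genes were counted in gene lists. These lists were chosen with earlier results of these data known, so their shares of called genes are a description. Of 20 other genes of mannose phosphate and GDP-mannose supply, none was called in OO against control (median log2 difference -0.02, against 0.06 over all genes). ALG9, a mannosyltransferase of the endoplasmic reticulum, was called lower in OO + PFA against PFA (-0.52, SE 0.13, adjusted p = 0.0379 by edgeR) and not without OP-137 (-0.49, adjusted p = 0.109), nor when P-67, P-95, P-107, OP-79 or OP-126 was left out. MPI, which makes the mannose 6-phosphate that PMM1 uses, was at 15.9 CPM in control and 14.5 CPM in OO livers (log2 difference -0.13, adjusted p = 0.628). GMPPA, the regulatory partner of the enzyme that makes GDP-mannose, was at 39.9 and 37.0 CPM (-0.11, adjusted p = 0.788). MPI and GMPPA were picked out for their place beside PMM1 after their values were seen. Of the 20 genes, 10 had a log2 difference above 0 in each oil contrast. Values ran from -0.42 (DPAGT1) to 0.84 (ALG12) in OO against control. In OO + PFA against PFA they ran from -0.96 (PGM2) to 1.22 (ALG12). PMM2, the paralog of PMM1, was not analysed here, as no row carried its symbol.

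Among 40 other RAB GTPase genes, RAB3D was the one called in OO against control, and it was lower (median of the list 0.13, against 0.06 over all genes). RAB3D, which acts in regulated secretion, fell from between 6.83 and 10.3 CPM in control to between 3.76 and 7.61 CPM in OO livers (log2 difference -0.64, SE 0.16, adjusted p = 0.0290 by edgeR). It was the one called in OO + PFA against PFA as well (-0.66, SE 0.17, adjusted p = 0.0467), where the call was lost without OP-137 (-0.59, adjusted p = 0.128) and without any other pig but P-138 or OP-98. Its call in OO against control was lost with all 24 livers, without the low-count filter and with the 2 diets fitted alone, as it was when C-85, C-110, OO-88, OO-99 or OO-102 was left out. None of the 40 other RAB genes was called higher in either oil contrast, where 1.37% and 1.24% of all genes were called higher.

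In the SLC25 family, 3 of 39 other genes (7.69%) were called higher in OO against control and none lower, and 3 were called higher in OO + PFA against PFA, where 1.37% and 1.24% of all genes were called higher. The median of the list was 0.04 in the first contrast and 0.17 in the second, against 0.06 and 0.00 over all genes. SLC25A20, the carnitine and acylcarnitine carrier, rose by 0.93 in OO (SE 0.14, from 33.1 to 63.1 CPM on average) and by 0.56 in OO + PFA, where it missed the threshold (adjusted p = 0.0545, edgeR). SLC25A34 rose in both contrasts, by 1.16 (SE 0.26, adjusted p = 0.0185) and 1.37 (SE 0.27, adjusted p = 0.00983). SLC25A33, a pyrimidine nucleotide carrier, rose by 1.32 in OO (SE 0.36, adjusted p = 0.0492), and in OO + PFA its difference of 1.19 had an adjusted p of 0.0972. DESeq2 called 6 of the list higher in OO, the fit of the 2 diets alone called 1, and the fits without pig OO-74 and without pig OO-97 called 6 and 8.

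SLC25A25 is an ATP-Mg/phosphate carrier. Its level lay between 12.3 and 41.4 CPM in control, 13.6 and 22.6 CPM in PFA and 17.2 and 34.9 CPM in OO livers, and between 37.4 and 161 CPM in OO + PFA livers, the highest being OP-137. It rose in OO + PFA against PFA (log2 difference 2.28, SE 0.31, adjusted p = 2.25e-04 by edgeR), and did so without OP-137 (1.83, adjusted p = 5.16e-04), while the difference between OO and control was 0.02 (adjusted p = 0.974). The interaction that tests the difference between these effects missed the threshold (2.25, adjusted p = 0.0979), as did OO + PFA against OO (1.67, adjusted p = 0.0942). SLC25A47, a liver carrier, rose by 2.45 in OO + PFA (SE 0.62, adjusted p = 0.0442) with 554 CPM in OP-137 against at most 197 CPM in the other 4 pigs, and lost the call without that pig (1.67, adjusted p = 0.171).

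The carnitine list, which SLC25A45 shares with the SLC25 list, held 4 of 7 other genes called higher in OO against control (57.1%, against 1.37% of all genes) and 3 of 7 in OO + PFA against PFA (42.9%, against 1.24%), with none lower. The study had already reported CPT1A and CPT2 as raised by oxidized oil in these livers. The list was thus chosen with genes known to rise, and these shares test nothing. Leaving out pig P-107 gave 2 calls in the second contrast. The medians were 0.93 and 0.56, against 0.06 and 0.00 over all genes. CPT1A, which joins long-chain fatty acids to carnitine at the outer mitochondrial membrane, rose by 1.60 (SE 0.15) in OO and 1.42 (SE 0.15) in OO + PFA. CPT2, its partner on the inner membrane, rose by 1.44 (SE 0.18) and 1.74 (SE 0.19), and CRAT, the carnitine acetyltransferase, rose by 1.26 (SE 0.22) and 1.07 (SE 0.23). The fourth gene, in OO, was SLC25A20. The remaining genes of the list, CROT and the synthesis genes TMLHE and BBOX1, were not called in either contrast. CROT differed by -0.23 in OO (SE 0.27, adjusted p = 0.647 by edgeR) and by -0.44 in OO + PFA (SE 0.28, adjusted p = 0.337). TMLHE, the enzyme that acts on trimethyllysine, differed by 0.36 in OO (SE 0.16, adjusted p = 0.209) and by -0.29 in OO + PFA (SE 0.17, adjusted p = 0.305). BBOX1, which carries out the last step of the synthesis and was picked out after its values were seen, differed by -0.24 (adjusted p = 0.420) and -0.53 (adjusted p = 0.108).

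**Figure D3:**
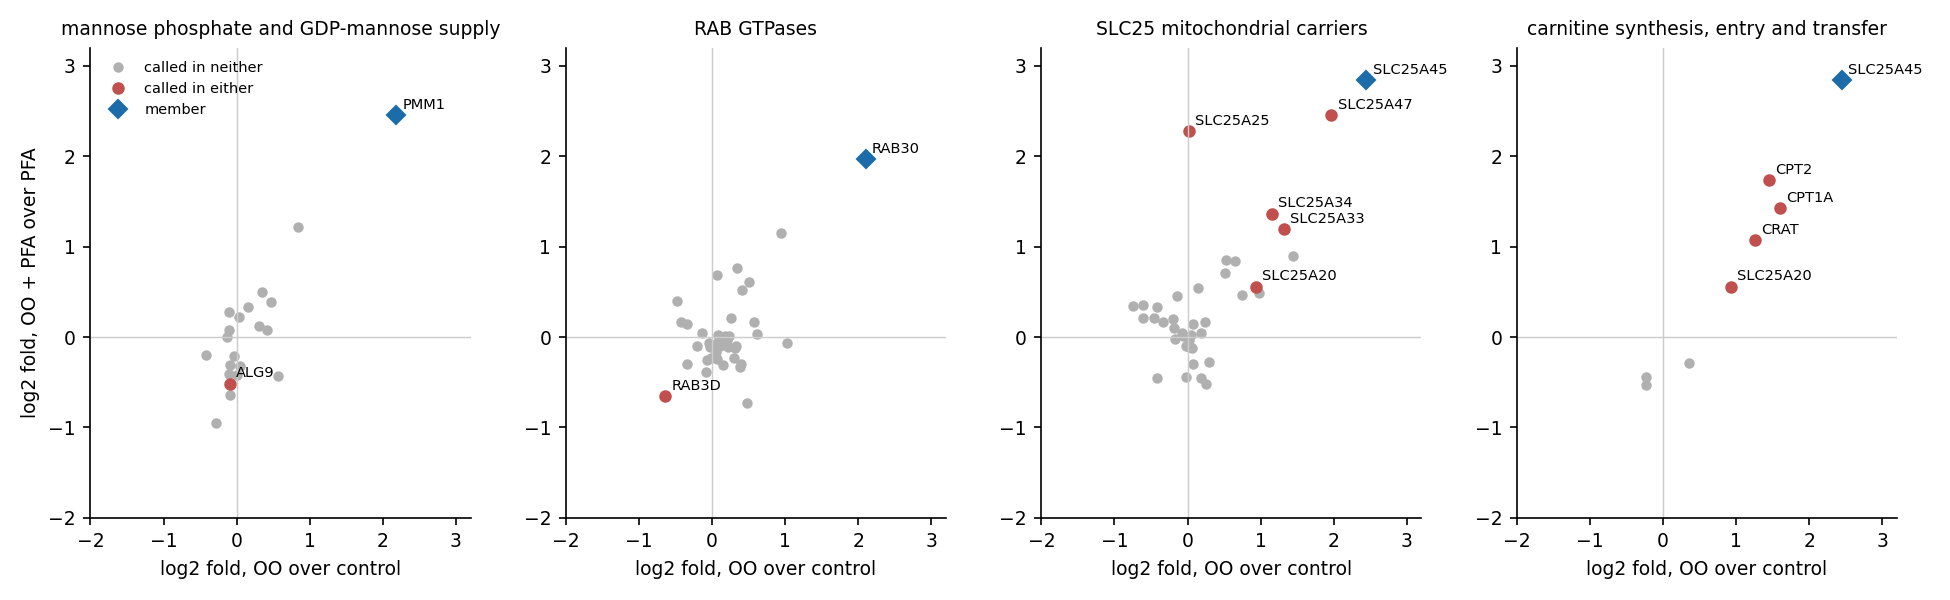
Log2 fold change of each gene of 4 lists in OO over control (x axis) and OO + PFA over PFA (y axis), with members as diamonds and other genes called in either contrast in red and named. PMM1, RAB30 and SLC25A45, which were chosen for high levels with oil, have the highest value of their lists on both axes, and in the carnitine list CPT1A (1.60 and 1.42) and CPT2 (1.44 and 1.74) come after SLC25A45 (2.45 and 2.84).

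How the 4 genes varied together among pigs of the same diet was described by Pearson's correlation of log2 CPM after subtracting the mean of the diet, over 23 livers. The livers share scaling and the points are not replicates of a condition, so no p is given. PMM1 and SLC25A45 varied together most closely (Pearson's r = 0.66, between 0.56 and 0.71 as each pig was left out in turn), and 96.2% of genes had a lower r with PMM1. RAB30 and ENSSSCG00000000576 came next (r = 0.58, between 0.38 and 0.64, Spearman's rho 0.40), and 99.6% of genes had a lower r with RAB30. Pairs across these were looser. PMM1 and RAB30 gave r = 0.30 with OP-137 and -0.10 without it, and RAB30 and SLC25A45 gave 0.30 with it and -0.02 without it. The correlation of PMM1 with ENSSSCG00000000576 was 0.17 and that of SLC25A45 with ENSSSCG00000000576 was 0.19. The main axis of variation among all genes within diets, which held 27.9% of the variance, had r = 0.65 with PMM1, 0.59 with SLC25A45, -0.16 with RAB30 and -0.31 with ENSSSCG00000000576. PMM1 also had r = 0.50 with the share of read pairs that fell on no gene, and SLC25A45 had 0.10. The part of this axis, which is not identified here, and of that share in the correlation of PMM1 with SLC25A45 was not tested.

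**Figure D4:**
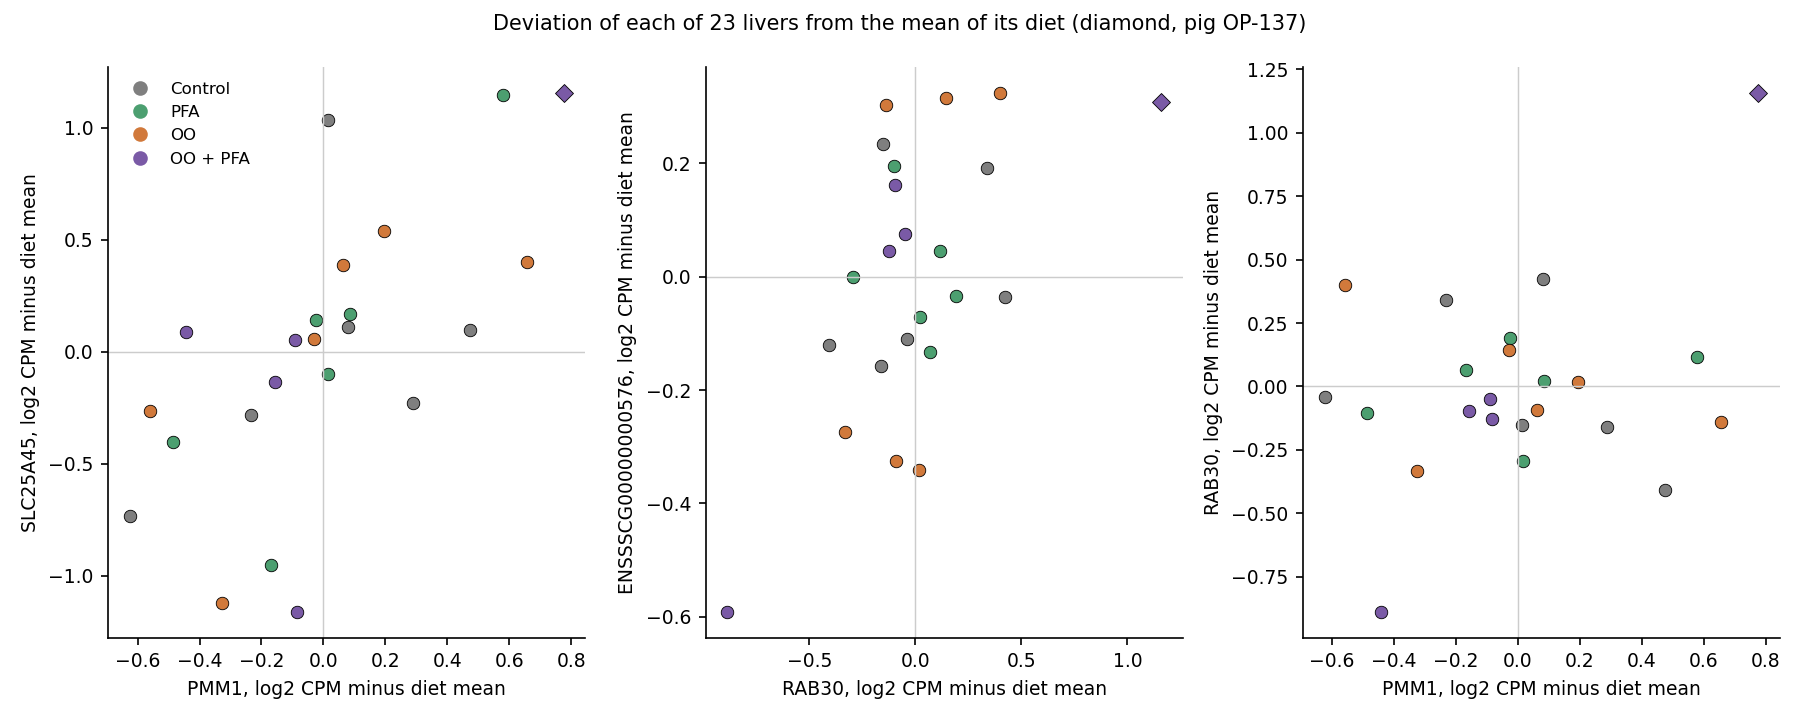
Deviation of log2 CPM from the diet mean in each of 23 livers, for PMM1 and SLC25A45 (left), RAB30 and ENSSSCG00000000576 (middle) and PMM1 and RAB30 (right), coloured by diet with pig OP-137 as a diamond. The left pair rises together (r = 0.66), the middle pair also (r = 0.58) with OP-79 lowest in both, and in the right pair the relation rests on OP-137.

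The 5 genes most like each of the 4 within diets were named by Pearson's r over the 23 livers. For PMM1 these were RTKN (r = 0.85), ADCY9 (0.85), COQ8A (0.84), CERK (0.84) and CBS (0.83), and none of them was called in either oil contrast. For RAB30 they were ENSSSCG00000006719 (0.72), INPP1 (0.71), HPS3 (0.69), MTARC1 (0.68) and GAREM1 (0.68), all with log2 differences in OO between -0.24 and 0.33. SLC25A45 was closest to DEPP1 (0.81), SNAI1 (0.81), FRMD8 (0.78), FSCN1 (0.78) and CKB (0.78). ENSSSCG00000000576 was closest to NAP1L1 (0.78), RSPO3 (0.76), STXBP6 (0.75), LDHA (0.75) and KCTD20 (0.72). FRMD8 is the gene that neighbours SLC25A45 on chromosome 2, on the other strand, and was the one of these 20 genes called with oil, where 2.71% and 1.58% of all genes were called in the 2 oil contrasts. It rose from between 4.97 and 11.7 CPM in PFA to between 12.7 and 20.2 CPM in OO + PFA livers (log2 difference 1.13, adjusted p = 0.0475 by edgeR), and in OO against control the difference was 0.96 (adjusted p = 0.0597). Its call was lost without OP-137 (1.07, adjusted p = 0.114).

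In the ileum PFA was compared with control in 5 pigs each, in a tissue that the choice of genes did not use. No gene of 14300 was called by edgeR (percent called 0; smallest adjusted p 0.702; 401 genes at an unadjusted p under 0.05), and DESeq2 called 4. PMM1 was at 8.28 ± 2.46 CPM in control and 7.27 ± 2.64 CPM in PFA ilea (SD, n = 5 each). RAB30 was at 3.78 ± 0.483 and 3.81 ± 1.92 CPM, SLC25A45 at 2.26 ± 0.449 and 1.81 ± 0.678 CPM, and ENSSSCG00000000576 at 87.9 ± 18.2 and 95.0 ± 13.7 CPM. The log2 differences lay between -0.31 and 0.11, with adjusted p from 0.991 to 0.996, and the groups overlapped in all 4 genes. The ileum was not sequenced here from pigs fed oil.

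Levels in ileum and liver of the same 10 pigs, none fed oil, were compared with the pig as a block. Tissue and library preparation cannot be told apart, and 78.7% of 14264 genes were called, 37.6% as lower in the ileum. The levels of these livers may have taken part in the choice of the genes, so the p-values for the 4 genes are not independent of it. With TMM factors set over the 20 libraries, all 4 genes were lower in the ileum. SLC25A45 fell from 5.48 ± 2.68 CPM in liver to 1.39 ± 0.405 CPM in ileum (SD, n = 10), a log2 difference of -1.91 (SE 0.19, adjusted p = 4.71e-07 by edgeR), and was lower in the ileum of 10 of 10 pigs, as were 27.8% of all genes tested. PMM1 was at 12.3 ± 3.34 and 5.32 ± 1.69 CPM (-1.24, SE 0.17, adjusted p = 1.09e-05), lower in 10 of 10 pigs. For ENSSSCG00000000576 the levels were 104.7 ± 10.01 and 62.5 ± 10.6 CPM (-0.76, SE 0.10, adjusted p = 5.62e-06), lower in 10 of 10 pigs, and for RAB30 3.90 ± 0.745 and 2.6 ± 0.918 CPM (-0.63, SE 0.20, adjusted p = 0.0107), lower in 9 of 10 pigs. Scaling by the library totals alone moved the median of all genes by 1.09 on the log2 scale, and SLC25A45 alone was then still called lower (-0.82, adjusted p = 0.003837). PMM1 was then at -0.14 (adjusted p = 0.501), and the other 2 turned, ENSSSCG00000000576 to 0.34 (adjusted p = 0.0163) and RAB30 to 0.46 (adjusted p = 0.05456). The lower level of RAB30 and ENSSSCG00000000576 in ileum thus holds relative to the median gene and not as a share of all counts. For PMM1 it was called relative to the median gene and not called as a share of all counts.

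**Figure D5:**
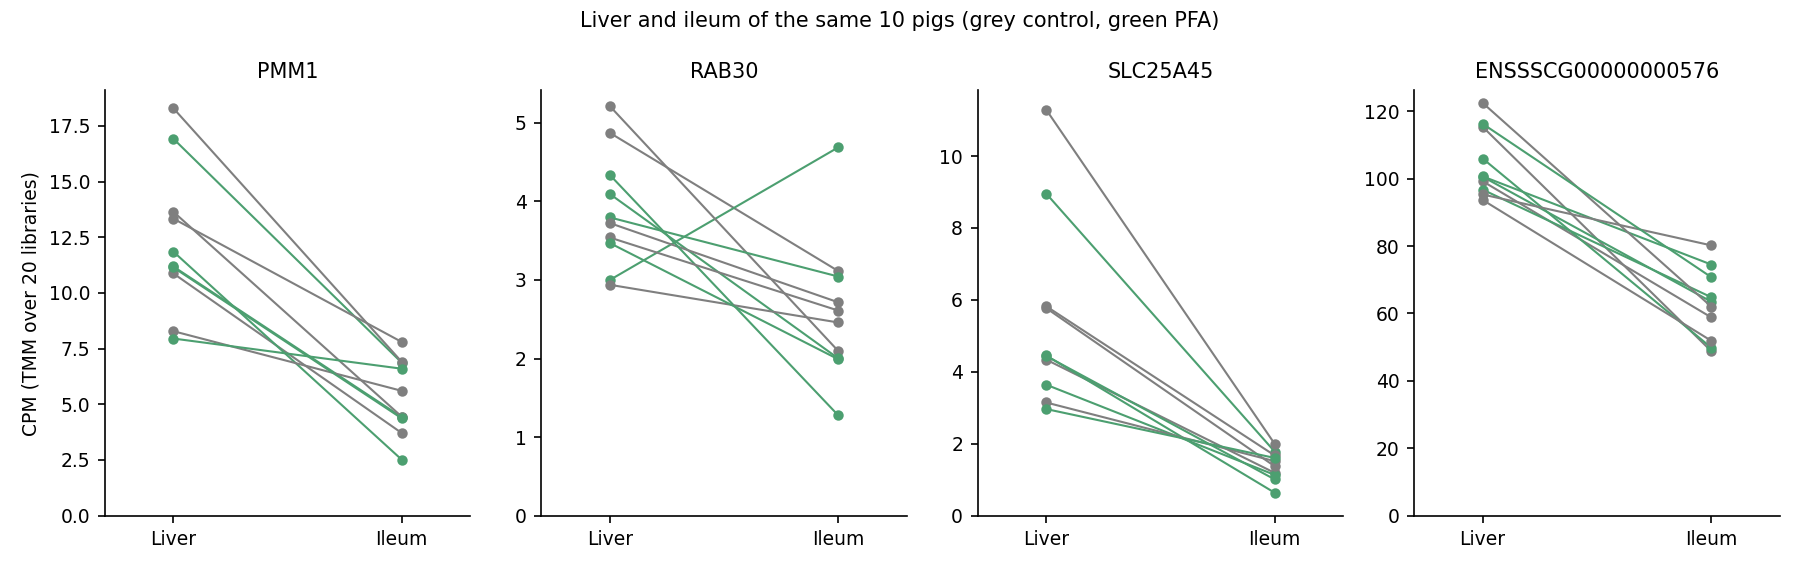
CPM of the 4 genes in liver and ileum of the same 10 pigs (lines join a pig; grey control, green PFA), with TMM factors set over the 20 libraries. Under this scaling the ileum is lower in 10 of 10 pigs for PMM1, SLC25A45 and ENSSSCG00000000576 and in 9 of 10 for RAB30. Scaling by library totals alone turns the direction for RAB30 and ENSSSCG00000000576 and leaves PMM1 not called.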

How the data were processed

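Poly(A) RNA from pig liver and ileum was sequenced with a stranded kit, and the authors aligned the read pairs with STAR 2.6.1d to Sscrofa11.1. They deposited raw counts per Ensembl gene from HTSeq, without normalization; which annotation release and strand setting were used is not given in the sources used here. The 5 HTSeq rows that name no gene were left out of library sizes and used only to describe libraries. Symbols were found for 14857 of 25880 gene rows.

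Counts were tested with edgeR 4.0.16 (R 4.3.3, limma 3.58.1): TMM, filterByExpr, quasi-likelihood test, two-sided, Benjamini-Hochberg over all genes tested, with adjusted p up to 0.05 taken as a call. The 4 liver diets were fitted together (23 livers). Differences within diets used log2 CPM with a prior count of 2. Depth was 18738055 to 42446834 read pairs on genes, and a gene at 3 counts is near the limit of counting. Intervals and p-values measure the spread between pigs, with 1 pen per diet. Tissues of a pig were paired by the pig number in the titles. Alternatives were other size factors, other count filters, DESeq2 1.42.0, all 24 livers, a term for the title form, fits of 2 diets alone and leaving out each pig, and, chosen after seeing the data, library totals alone between tissues and the gene lists without OP-137. The fits were tested on simulated counts.

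The 4 genes and the gene lists were chosen with earlier results of these data known. OO + PFA against PFA had been planned as a test of the 4 genes and is given for them as a description, since it may have been in view when they were chosen. Of listed genes, up to 5 per list with the largest change among those called in each oil contrast were named, with the 5 genes most correlated with each member, PMM2 and TMLHE. Upstream sequences and positions came from RefSeq for Sscrofa11.1 (3 of 4 genes matched). GC content was available for 79.8% of genes tested, under the 80% needed, so no check of it was made. Tables were handled with Python 3.11.15 and pandas 2.3.3.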

Additional observations from a re-analysis of the deposited data

Results flagged for a closer look

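Among 24 groups of 5 or 6 pigs (4 genes in 4 liver and 2 ileum groups), 4 groups had a pig far from the others by Dixon's criterion. Chance gives about 1 in 20 groups where groups are independent and values follow a normal distribution. Here the same pigs recur in all 4 genes, so nothing is read from the number of groups. In OO + PFA livers, pig OP-137 stood apart in PMM1 at 71.4 CPM and in RAB30 at 20.4 CPM. In control livers, pig C-92 stood apart in SLC25A45 at 7.66 CPM, and in PFA livers pig P-134 did so at 6.14 CPM. The OO + PFA liver left out of the fits, OP-77, held 49.7 CPM of PMM1, 5.04 CPM of RAB30, 31.8 CPM of SLC25A45 and 160.5 CPM of ENSSSCG00000000576, each above the highest control liver under the scaling of all 24 livers (12.3, 3.58, 7.57 and 82.1 CPM).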

How the results depend on the processing

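In every alternative fit across livers, and with each pig left out, all 4 genes stayed higher in OO against control (2.01 to 2.74 on the log2 scale as single pigs were left out) and higher in OO + PFA against PFA. The genes were chosen for high levels with oil, so this stable direction tests nothing. The counts of genes called moved more, and the cause was not tested. OO against control called 224 genes with all 24 livers, 1079 with DESeq2 and 194 with the 2 diets alone, and from 167 (without OO-130) to 1325 (without OO-97) as pigs were left out, with 848 without OO-74, 189 without C-85, 193 without C-80, 207 without OO-102 and 237 without C-110. OO + PFA against PFA called 1225, 697 and 963 genes under the same 3 settings, and from 103 (without OP-137) to 411 (without P-138), with 111 to 124 without P-95, P-67, P-107 or OP-126. DESeq2 called 43 genes for PFA against control in liver, 31 for OO + PFA against OO, 150 for the interaction and 4 in the ileum. With all 24 livers 1 gene was called for OO + PFA against OO, and other size factors or no filter gave 2 each for the interaction, while leaving out pigs gave 0 to 7 and 0 to 5 calls.

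Within the PL livers (1 against 3) OO + PFA exceeded PFA by 3.17 for PMM1, 2.88 for RAB30 and 3.64 for SLC25A45. DESeq2 called ENSSSCG00000000576 in OO + PFA against OO (-0.77). Small uncalled differences changed sign: ENSSSCG00000000576 in PFA against control came to 0.01 (0.0137) without a filter and to between -0.0447 and 0.0416 as pigs were left out, where RAB30 ran from -0.14 to 0.0391. In OO + PFA against OO, SLC25A45 came to 0.0973 with all 24 livers, 0.0026 with a term for the title form and -0.41 to 0.19 with pigs left out, and PMM1 to -0.20 to 0.21. The interaction ran from -0.55 to 0.0387 for RAB30 and from -0.0044 to 0.72 for SLC25A45, and RAB30 in the ileum from -0.30 to 0.18.

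The rank correlation of PMM1 with ENSSSCG00000000576 was -0.0188. With pigs left out PMM1 and RAB30 gave -0.0956 to 0.43, and RAB30 and SLC25A45 -0.0225 to 0.39. Between tissues, library totals alone gave -0.14 for PMM1, 0.46 for RAB30 and 0.34 for ENSSSCG00000000576. Without the pig as a replicate block the differences were -1.21, -0.59, -1.98 and -0.74 for PMM1, RAB30, SLC25A45 and ENSSSCG00000000576, and the pairing changed no other call. RAB30, at 38 to 131 read pairs in tissue without oil, and SLC25A45, at 18 to 287, are the values that depth limits most.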
